A study of Arabidopsis thaliana with 16 samples.

Results

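The genes described here encode 10 components of cytoplasmic mRNA decay in Arabidopsis seedlings: the deadenylases CAF1a, CAF1b, CCR4a and CCR4b, the scaffold NOT1, the decapping factors DCP1, DCP2, DCP5 and VCS, and the exonuclease XRN4. They were taken by locus from the tables of RNA-seq and Ribo-seq counts, 10 of 27628 genes, and all 10 passed the filter on low counts in both assays. The seedlings were 10 days old, of the wild type Col-0 or the mutant fust1, and stayed at 22 °C or were given 37 °C, which the labels call heatshock. Each combination of genotype, temperature and assay had n = 2 libraries, so 16 libraries in 8 groups. The labels gave neither the length of the heat treatment nor the nature of the fust1 allele, nor whether replicates were separate cultures, so p-values measure the spread between these samples, which may be technical. RNA-seq counted RNA selected with oligo-dT, and Ribo-seq counted the fragments of RNA that ribosomes protected from RNase I (footprints), after depletion of ribosomal RNA. CCR4a, CCR4b and NOT1 carry only their locus names (AT3G58560, AT3G58580 and AT1G02080) in the name table used here. The other members are CAF1a (AT3G44260), CAF1b (AT5G22250), DCP1 (AT1G08370), DCP2 (AT5G13570), DCP5 (AT1G26110), VCS (AT3G13300) and XRN4 (AT1G54490).

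Decay of most cytoplasmic mRNAs starts with loss of the poly(A) tail. In the CCR4-NOT complex, NOT1 is the scaffold, and CAF1 and CCR4 proteins are the nucleases that shorten the tail. The cap is then removed by DCP2, the catalytic subunit, with its partner DCP1 and the scaffold VCS (VARICOSE), while DCP5 is an RNA-binding factor of decapping and translational repression. XRN4 degrades the decapped RNA from its 5′ end, and in Arabidopsis it is known for a role in mRNA turnover under heat.

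RNA-seq libraries held 9402134 to 12737375 counts and footprint libraries 6175906 to 13968790, the shallowest being the Col-0 37 °C footprints (6271023 and 6175906). No pair of replicates agreed within sampling noise, with chi-square per degree of freedom from 4.8 to 27. The heat labels matched 2 heat genes, since HSP101 and HSFA2 were far higher in every 37 °C library. SQN, a cyclophilin, had RNA counts of 80 and 100 in Col-0 and 0 and 0 in fust1 at 22 °C, and 387 and 511 against 2 and 3 at 37 °C, so loss of SQN RNA and the fust1 genotype cannot be told apart in these libraries. The mutant's own gene was not identified in the table and is not reported. The 5 shoot photosynthetic markers were detected in every library. Of the 5 root markers, EXPA7 was at 0 in 2 RNA libraries and SHV2 in 3 of the footprint libraries at 37 °C.

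Values are CPM, a gene's counts relative to the size of its library after TMM scaling, which sets the bulk of genes to about equal levels in all libraries, and n is 2 for every group. Changes are log2 differences ± standard error from the quasi-likelihood test of edgeR. Adjusted p-values are Benjamini-Hochberg values over all genes tested, and a gene was called at an adjusted p under 0.05. On plain library totals the median change of all genes in heat shifted by -1.03 (Col-0) and -0.92 (fust1) for RNA, by -1.79 and -1.67 for footprints, and by -0.76 and -0.75 for footprints beyond RNA. The 10 genes together took 0.0611 to 0.0702 % of RNA counts at 22 °C and 0.0234 to 0.029 % at 37 °C, and 0.0662 to 0.0714 % of footprints at 22 °C and 0.0104 to 0.0119 % at 37 °C. Intervals from counts use counts summed over the 2 libraries of a group, so they cover counting error only and not the spread between libraries. Reads carried no molecular identifiers.

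In heat, RNA of CAF1a nearly vanished in both genotypes, and RNA of CAF1b fell from few counts to 1 to 4 per library. RNA of CCR4a, CCR4b and DCP5 fell more moderately, though the CCR4b calls were not stable. RNA of DCP2, NOT1, VCS and XRN4 passed no test on the TMM scale. In Col-0, 5 of 10 genes had lower RNA and 1 (DCP1) had higher RNA, where 37.3 % of all 19340 genes tested were called, 19.2 % higher and 18.2 % lower. In fust1, 5 were lower and 0 higher, against 36.7 % of all genes called, 18.8 % higher and 17.9 % lower. The median RNA change of the 10 genes was -0.21 in Col-0 and -0.52 in fust1, beside -0.1 and -0.12 over all genes tested. On library totals 8 of 10 were called in each genotype, all lower, beside 57.8 % of all genes lower and 4.99 % higher in Col-0 and 51.3 % and 4.63 % in fust1. Higher genes made up 7.94 % of all calls on that scale in Col-0, against 51.4 % with TMM. In fust1 that share was 8.28 %, against 51.2 %.

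Footprints fell for CCR4a, NOT1, DCP5 and VCS in both genotypes, and for CAF1a, CAF1b and CCR4b in fust1. In Col-0 4 of 10 genes were lower and 1 (DCP1) higher, with 59.7 % of 18445 genes called, 27.9 % higher and 31.8 % lower. In fust1 7 were lower and 0 higher, with 58.8 % of all genes called, 27.6 % higher and 31.2 % lower. The median footprint change of the 10 genes was -0.74 in Col-0 and -1.09 in fust1, beside -0.21 and -0.13 over all genes. On library totals footprints of all 10 genes were called lower in both genotypes, near the share of all genes, of which 79.1 % were lower and 3.76 % higher in Col-0 and 82.0 % and 3.69 % in fust1. Of all calls on that scale 4.53 % were higher in Col-0 and 4.31 % in fust1, against 46.7 % and 46.9 % with TMM. Cell type markers moved with heat as well. The summed root markers stood at 656 to 2460 CPM of the library total in RNA at 22 °C and at 144 to 365 CPM at 37 °C, with 1880 to 2650 CPM and 155 to 270 CPM in footprints. The summed shoot markers stood at 36900 to 48000 CPM and 25100 to 37800 CPM in RNA, and at 16300 to 24700 CPM and 2620 to 4660 CPM in footprints. Over all genes the median change on library totals was -1.13 (Col-0) and -1.04 (fust1) for RNA, and -2 and -1.8 for footprints. Single markers differed, and PYK10 made up most of the root sum. In Col-0 RNA, counts of CAB2, RBCS1A and RBCS1B were lower at 37 °C, while RCA and LHCA4 overlapped between temperatures. In fust1 RNA, counts of RBCS1A and RBCS1B were lower at 37 °C, while CAB2, RCA and LHCA4 overlapped. Of the root markers, PYK10, SHV2, EXPA7, CASP1 and IRT1 all had lower counts at 37 °C in Col-0 RNA. For fust1 RNA, PYK10 and SHV2 counts were lower at 37 °C, while CASP1, IRT1 and EXPA7 overlapped. The part of these shifts in the changes below was not tested.

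**Figure D1:**
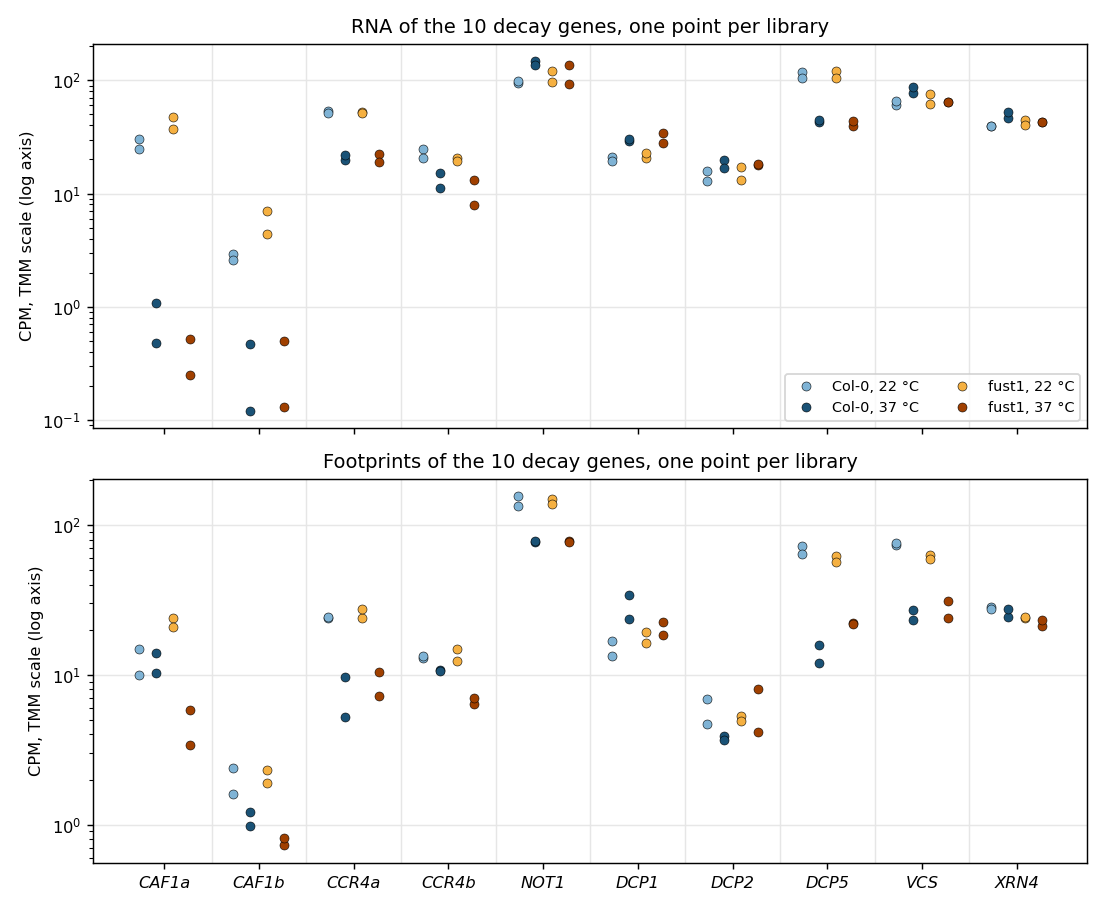
CPM on the TMM scale (log axis) of each of the 10 decay genes in RNA (upper panel) and footprints (lower panel), with one point per library and one colour per genotype and temperature. CAF1a RNA lies between 24.9 and 47.5 CPM at 22 °C and between 0.247 and 1.08 CPM at 37 °C, while CAF1a footprints overlap between temperatures in Col-0 and separate in fust1.

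**Figure D2:**
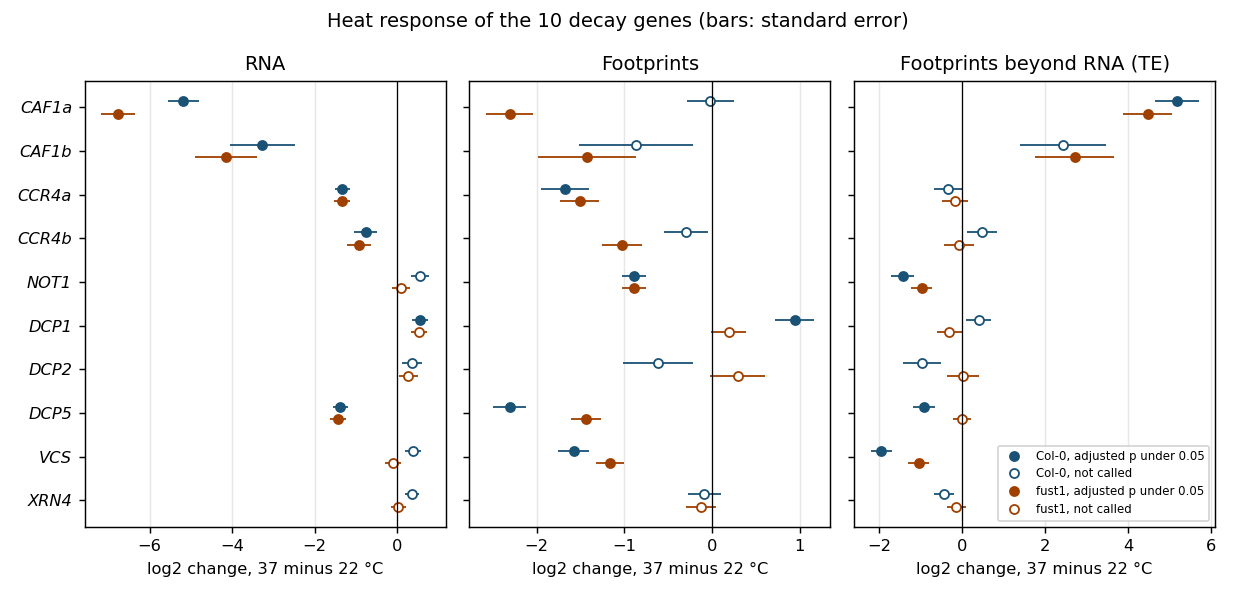
Log2 change from 22 to 37 °C on the TMM scale with its standard error for RNA, footprints and footprints beyond RNA (TE), in Col-0 and fust1. Filled points have an adjusted p under 0.05. CAF1a has the lowest RNA change of the 10 genes (-5.18 and -6.76) and the highest TE change (5.17 and 4.47); on library totals each footprint change of the 10 genes lies below 0.

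CAF1a, one of the stress-inducible CAF1 deadenylases, lost nearly all its poly(A) RNA in heat. In Col-0 its RNA stood at 24.9 and 30.3 CPM at 22 °C and at 0.481 and 1.08 CPM at 37 °C, from 325 and 546 counts down to 4 and 7. In fust1 it stood at 47.5 and 37.5 CPM at 22 °C and at 0.519 and 0.247 CPM at 37 °C, from 626 and 538 counts down to 4 and 2. All 4 libraries at 37 °C lay far below all 4 at 22 °C. The log2 change was -5.18 ± 0.37 in Col-0 (adjusted p = 1.44e-06; -5.81 without Col-0 37 °C replicate 2) and -6.76 ± 0.41 in fust1 (adjusted p = 3.4e-07; -7.36 without fust1 37 °C replicate 1). The summed counts left 2.65 % of the 22 °C level in Col-0 (exact 95 % interval 1.32 to 4.77) and 0.897 % in fust1 (0.329 to 1.96). In bulk seedlings, fewer cells of a type and less RNA per cell cannot be told apart.

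Footprints of CAF1a fell less than the RNA in fust1, and in Col-0 their change was not called on the TMM scale. In Col-0 they were 9.93 and 14.8 CPM at 22 °C and 14 and 10.3 CPM at 37 °C, from 240 and 286 counts to 43 and 34 in much shallower libraries, and the groups overlapped. In fust1 they were 23.8 and 20.9 CPM at 22 °C and 5.81 and 3.41 CPM at 37 °C, from 597 and 572 counts to 32 and 25, with no overlap. The footprint change was -0.02 ± 0.27 in Col-0 (95 % interval -0.57 to 0.54, adjusted p = 0.96) and -2.31 ± 0.27 in fust1 (adjusted p = 3.17e-08). The Col-0 level was held only relative to the bulk of genes, as the change on library totals was -1.82 (adjusted p = 8.62e-07).

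Footprints beyond RNA, the change in translational efficiency (TE) tested as the interaction of assay with temperature, rose for CAF1a by 5.17 ± 0.52 in Col-0 (adjusted p = 9.24e-07) and by 4.47 ± 0.59 in fust1 (adjusted p = 3.43e-05). These were the 85th and 101st highest of 17816 TE changes, and both RNA and footprints enter them, so the few RNA counts at 37 °C bear on their size: without the same 2 RNA libraries they were 5.80 and 5.07. The RNA side held only RNA selected with oligo-dT and the footprint side did not, and the part of this in TE was not tested. The genotypes differed in the footprint response to heat, with a heat by genotype term of -2.30 ± 0.39 (adjusted p = 0.000463). Leaving out each footprint library in turn gave -2.65 to -1.88 with adjusted p up to 0.017. The matching terms were -1.58 ± 0.69 for RNA (adjusted p = 0.517) and -0.70 ± 0.95 for TE (95 % interval -2.69 to 1.29, adjusted p = 0.749), so no difference of genotypes was called beyond that of RNA.

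**Figure D3:**
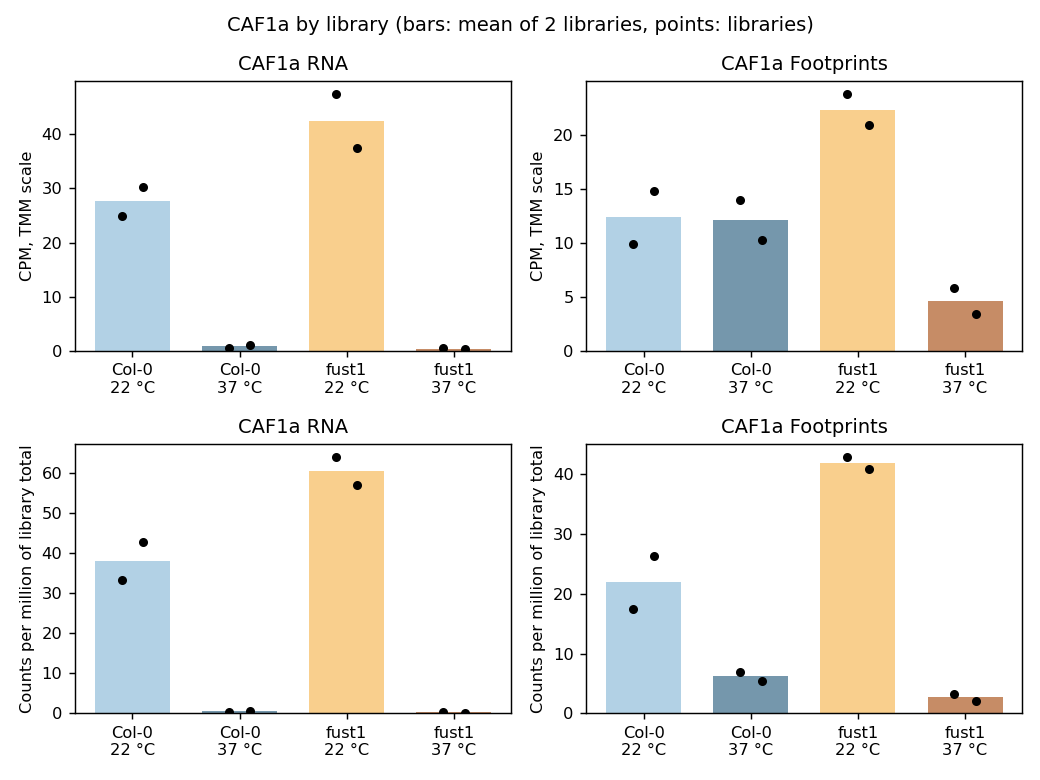
CAF1a in RNA (left) and footprints (right) as CPM on the TMM scale (top) and as CPM of the plain library total (bottom); bars are means of 2 libraries and points the libraries. Footprints in Col-0 average 12.4 CPM at 22 °C and 12.2 CPM at 37 °C on the TMM scale but fall on library totals, while fust1 footprints fall on both scales.

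CAF1b, the close relative of CAF1a, had few counts. Its RNA in Col-0 was 2.91 and 2.61 CPM at 22 °C and 0.12 and 0.463 CPM at 37 °C, and in fust1 4.4 and 7.05 CPM and 0.13 and 0.494 CPM. All 37 °C libraries, with 1 to 4 counts each, lay below all at 22 °C. RNA fell by 3.27 ± 0.79 in Col-0 (adjusted p = 0.00822) and by 4.14 ± 0.75 in fust1 (adjusted p = 0.0017), with 9.88 % (exact 95 % interval 2.63 to 26.2) and 5.47 % (1.75 to 13) of the 22 °C level left by counts. These folds rest on few counts, as the change was -2.55 and -4.40 in Col-0 without replicate 1 and replicate 2 at 37 °C (adjusted p up to 0.0493 over all left-out libraries), and -3.50 and -5.35 in fust1. Footprints were 2.4 and 1.6 CPM against 0.979 and 1.22 CPM in Col-0 (22 and 37 °C), and 1.91 and 2.31 CPM against 0.726 and 0.819 CPM in fust1. The groups did not overlap in either genotype, but the footprint change was -0.87 ± 0.65 in Col-0 (adjusted p = 0.253) and -1.43 ± 0.56 in fust1 (adjusted p = 0.0298). That fust1 call was lost when any of the 4 fust1 footprint libraries was left out (adjusted p up to 0.135). TE changes were 2.42 ± 1.04 (adjusted p = 0.0756) and 2.71 ± 0.95 (adjusted p = 0.04), and the fust1 call was lost on library totals and without the filter. It was also lost without any one of 10 of the 16 libraries (adjusted p up to 0.134), with values of 2.08 without fust1 37 °C RNA replicate 1 and 3.94, still called, without replicate 2. The libraries were each Col-0 22 °C library of either assay, each fust1 footprint library, and the RNA libraries fust1 22 °C replicate 2 and fust1 37 °C replicate 1.

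CCR4a, a CCR4-type deadenylase, fell in RNA and in footprints. Its RNA was 53.2 and 51.3 CPM at 22 °C and 19.6 and 21.9 CPM at 37 °C in Col-0, and 52.6 and 51.7 CPM and 22.4 and 18.8 CPM in fust1. Footprints were 24.1 and 24.4 CPM and then 5.22 and 9.73 CPM in Col-0, and 23.8 and 27.6 CPM and then 7.26 and 10.5 CPM in fust1. In each assay and genotype the temperatures did not overlap. RNA changed by -1.33 ± 0.19 in Col-0 (adjusted p = 0.000289) and -1.34 ± 0.19 in fust1 (adjusted p = 0.000296). Footprints changed by -1.68 ± 0.27 (adjusted p = 3.89e-06; -2.29 without Col-0 37 °C replicate 2) and -1.51 ± 0.22 (adjusted p = 1.62e-06). TE was not called (-0.35 ± 0.34 and -0.17 ± 0.31).

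CCR4b, which lies 1 coding gene away from CCR4a in the name table, showed smaller changes; whether reads were unique between such copies was not checked. RNA was 24.5 and 20.4 CPM at 22 °C and 15.2 and 11.1 CPM at 37 °C in Col-0, and 20.8 and 19.3 CPM and 13.1 and 7.91 CPM in fust1, without overlap. The changes of -0.77 ± 0.28 (adjusted p = 0.0472) and -0.93 ± 0.28 (adjusted p = 0.0221) were not stable. The first was lost under DESeq2 (adjusted p = 0.0604) and without either 22 °C RNA library of Col-0 or of fust1 or Col-0 37 °C replicate 2 (up to 0.261). The second was lost without either fust1 22 °C RNA library or fust1 37 °C replicate 2 (up to 0.172). Footprints in Col-0 were 13 and 13.4 CPM and then 10.8 and 10.6 CPM, a change of -0.30 ± 0.25 (adjusted p = 0.302). In fust1 they went from 14.9 and 12.4 CPM to 6.36 and 6.97 CPM, a fall of 1.03 ± 0.23 (adjusted p = 0.000393). The heat by genotype term was -0.73 ± 0.34 (adjusted p = 0.195), so the genotypes were not shown to differ.

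NOT1, the scaffold that holds the deadenylases, lost footprints while its RNA passed no test on the TMM scale. RNA in Col-0 was 95 and 99.2 CPM at 22 °C and 147 and 137 CPM at 37 °C, and in fust1 120 and 96.1 CPM and 137 and 93.1 CPM, overlapping only in fust1. The RNA change was 0.55 ± 0.22 (adjusted p = 0.0733) and 0.09 ± 0.22 (adjusted p = 0.773), and on library totals it was negative, -0.49 and -0.81. Footprints went from 133 and 156 CPM to 77.3 and 78.5 CPM in Col-0 and from 149 and 139 CPM to 77.9 and 77 CPM in fust1. The 4 libraries at 37 °C lay within 2 CPM of each other and below all at 22 °C. The footprint change was -0.89 ± 0.14 in both genotypes (adjusted p = 5.26e-06 and 3.38e-06), and TE fell by 1.44 ± 0.27 (adjusted p = 0.000429) and 0.98 ± 0.26 (adjusted p = 0.00966). Without replicate 1 of the fust1 37 °C RNA libraries the last value had an adjusted p of 0.0597.

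DCP2, the decapping enzyme, was not called in any of the 15 comparisons on the TMM scale. Its RNA was 15.7 and 12.8 CPM at 22 °C and 19.6 and 16.8 CPM at 37 °C in Col-0, and 13.1 and 17.1 CPM and 18 and 18.3 CPM in fust1. Its footprints were 6.87 and 4.7 CPM and then 3.92 and 3.65 CPM in Col-0, and 5.34 and 4.94 CPM and then 4.18 and 8.06 CPM in fust1, where the temperatures overlapped. RNA changes of 0.36 ± 0.24 and 0.26 ± 0.23 (-0.67 and -0.67 on library totals) and footprint changes of -0.62 ± 0.40 and 0.29 ± 0.31 (-1.38 in fust1 on library totals) left 95 % intervals of -1.45 to 0.21 and -0.35 to 0.92 for footprints.

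DCP1, the partner of DCP2, rose relative to the bulk of genes in Col-0. RNA was 21.1 and 19.4 CPM at 22 °C and 29 and 30.1 CPM at 37 °C in Col-0, and 20.8 and 22.9 CPM and 27.9 and 34.6 CPM in fust1, without overlap. The RNA change of 0.55 ± 0.20 in Col-0 (adjusted p = 0.0472) was lost under DESeq2, without the filter and without any one RNA library other than the fust1 37 °C ones (adjusted p up to 0.222), and turned to -0.49 on library totals. In fust1 it was 0.52 ± 0.19 (adjusted p = 0.0575; -0.42 on library totals). Footprints in Col-0 went from 13.3 and 16.7 CPM to 34.3 and 23.4 CPM, and in fust1 from 19.2 and 16.4 CPM to 22.5 and 18.4 CPM. Only the Col-0 groups did not overlap. The footprint change in Col-0 was 0.94 ± 0.22 (adjusted p = 0.000486), but 0.56 without replicate 1 at 37 °C (adjusted p = 0.0775) and -0.86 on library totals; in fust1 it was 0.19 ± 0.20 (adjusted p = 0.426; -1.48 on library totals). The heat by genotype term for footprints was -0.75 ± 0.30 (adjusted p = 0.116).

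DCP5 fell in RNA and footprints, and its footprints fell less in fust1. RNA was 119 and 106 CPM at 22 °C and 42.6 and 44.2 CPM at 37 °C in Col-0, and 120 and 105 CPM and 39.8 and 43.4 CPM in fust1. Footprints went from 72.1 and 64 CPM to 15.7 and 11.9 CPM in Col-0, and from 62.5 and 56.5 CPM to 22.2 and 21.7 CPM in fust1. No temperatures overlapped, and at 37 °C both fust1 footprint libraries lay above both of Col-0. RNA fell by 1.38 ± 0.19 in Col-0 (adjusted p = 0.000217) and by 1.44 ± 0.19 in fust1 (adjusted p = 0.000179). Footprints fell by 2.31 ± 0.19 (adjusted p = 4.45e-11) and by 1.44 ± 0.17 (adjusted p = 2.22e-08), and TE by 0.93 ± 0.26 in Col-0 (adjusted p = 0.00864), beside 0.00 ± 0.22 in fust1 (adjusted p = 0.997). The heat by genotype term was 0.87 ± 0.26 for footprints (adjusted p = 0.0343), and was lost without Col-0 22 °C replicate 1, Col-0 37 °C replicate 2 or either fust1 22 °C replicate (adjusted p up to 0.148). For TE that term was 0.93 ± 0.35 and was not called (adjusted p = 0.183).

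VCS, the decapping scaffold, resembled NOT1 in that footprints fell and RNA was not called on the TMM scale. RNA was 60.7 and 66.2 CPM at 22 °C and 77.1 and 87.4 CPM at 37 °C in Col-0, and 75.9 and 62.4 CPM and 64.3 and 63.9 CPM in fust1. Footprints went from 73.2 and 76.2 CPM to 27.1 and 23.1 CPM in Col-0 and from 63.1 and 59 CPM to 31.1 and 23.9 CPM in fust1. Only the fust1 RNA overlapped between temperatures. The RNA change was 0.37 ± 0.19 (adjusted p = 0.132, -0.67 on library totals) and -0.11 ± 0.19 (adjusted p = 0.674). On library totals the fust1 value was -1.02 (adjusted p = 0.000657). Footprints fell by 1.58 ± 0.18 (adjusted p = 1.31e-08) and 1.16 ± 0.16 (adjusted p = 6.46e-07), and TE by 1.95 ± 0.26 (adjusted p = 1.57e-05) and 1.05 ± 0.25 (adjusted p = 0.00439). The TE term for heat by genotype was 0.90 ± 0.35 (adjusted p = 0.201).

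XRN4, the cytoplasmic 5′ to 3′ exonuclease, was not called in any comparison on the TMM scale. RNA was 39.4 and 39.2 CPM at 22 °C and 46.9 and 53 CPM at 37 °C in Col-0, and 44.5 and 40 CPM and 42.7 and 43 CPM in fust1. Footprints were 28.2 and 27.4 CPM and then 24.5 and 27.7 CPM in Col-0, and 24.1 and 24.4 CPM and then 21.1 and 23.2 CPM in fust1. The temperatures overlapped for Col-0 footprints and fust1 RNA, while Col-0 RNA was higher and fust1 footprints lower in both 37 °C libraries. RNA changed by 0.35 ± 0.17 and 0.02 ± 0.18 (-0.69 and -0.90 on library totals), and footprints by -0.09 ± 0.19 (95 % interval -0.47 to 0.29) and -0.13 ± 0.17 (-0.48 to 0.23), so XRN4 footprints kept close to the bulk of genes and fell with it on library totals.

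Beyond RNA, TE rose in Col-0 for CAF1a and fell for NOT1, DCP5 and VCS, so 4 of 10 genes were called where 37.0 % of 17816 genes were, 15.5 % higher and 21.5 % lower. In fust1 CAF1a and CAF1b were higher and NOT1 and VCS lower, again 4 of 10, with 28.3 % of all genes called, 12.5 % higher and 15.7 % lower. Median TE change of the 10 genes was -0.39 in Col-0 and -0.12 in fust1, beside 0 and 0.01 over all genes. On library totals the TE calls were 1 higher and 6 lower in each genotype, beside 3.17 % of all genes higher and 34.9 % lower in Col-0 and 3.61 % and 33.3 % in fust1. Higher calls made up 8.33 % of all calls in Col-0 (41.9 % with TMM) and 9.8 % in fust1 (44.3 % with TMM). CAF1a was the gene higher on that scale in both genotypes.

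Between genotypes, fust1 had more CAF1a footprints than Col-0 at 22 °C and fewer at 37 °C, while RNA of the 10 genes was not called at either temperature. These comparisons use the same libraries as the heat comparisons. For RNA 0 of 10 genes were called at 22 °C (0.0569 % of all genes called, 0.0465 % higher and 0.0103 % lower), at 37 °C (0.0517 %, with 0.0155 % higher and 0.0362 % lower) and for heat by genotype (0.0310 %, all lower). DESeq2 called 0 of 10 in each, and 87, 318 and 186 of all 19340 genes. The counts at an unadjusted p under 0.05 were 1, 0 and 1, and the share of all genes at that threshold was not counted. CAF1a was the gene at an unadjusted p under 0.05 in both cases, with an RNA difference at 22 °C of 0.62 ± 0.25 (adjusted p = 1). Both fust1 libraries at 22 °C had more CAF1a RNA than both of Col-0.

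For footprints 1 of 10 genes was called at 22 °C (4.38 % of all genes called, 2.31 % higher and 2.07 % lower). At 37 °C 2 were called (10.7 %, with 6.10 % higher and 4.61 % lower), and for heat by genotype 2 (8.70 %, with 5.49 % higher and 3.21 % lower). On library totals the share of higher genes among all calls moved from 52.7 to 74.7 % at 22 °C, from 57 to 84.5 % at 37 °C and from 63.1 to 78.9 % for heat by genotype. The median of all genes moved by 0.17 for RNA and 0.21 for footprints at 37 °C, and by 0.11 and 0.12 for heat by genotype, and the members' calls were the same in number. At 22 °C CAF1a footprints were higher in fust1 by 0.86 ± 0.21 (adjusted p = 0.0148), without overlap of libraries. At 37 °C they were lower by 1.43 ± 0.33 (adjusted p = 0.00588), again without overlap. Leaving out Col-0 replicate 1 or either fust1 replicate at 22 °C ended the first call (adjusted p up to 0.509). Without Col-0 replicate 1 or fust1 replicate 2 at 37 °C the second had an adjusted p of up to 0.127. DCP5 footprints were higher in fust1 at 37 °C by 0.68 ± 0.21 (adjusted p = 0.0409), which RLE scaling (0.0569) and DESeq2 (0.0518) took past the threshold, as did leaving out any one footprint library other than replicate 1 of either genotype at 37 °C (adjusted p up to 0.177). At 37 °C footprints did not overlap between genotypes for 7 of the 10 genes, where 49.3 % of all genes did not. Besides CAF1a and DCP5 these were CCR4b (-0.68 ± 0.29, adjusted p = 0.131), DCP1 (-0.50 ± 0.23, adjusted p = 0.166), DCP2 (0.73 ± 0.43, adjusted p = 0.298), XRN4 (-0.23 ± 0.20, adjusted p = 0.494) and CAF1b (-0.50 ± 0.83, adjusted p = 0.752), none of them called.

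TE differed between genotypes for 0 of 10 genes at 22 °C (0.00561 % of all genes called), 37 °C (1.32 %) and for heat by genotype (1.09 %). DESeq2 called 0 of 10 in each. The counts at an unadjusted p under 0.05 were 0, 1 and 2, and the share of all genes at that threshold was not counted. DCP5 was among them at 37 °C (0.74 ± 0.27, adjusted p = 0.177), and DCP5 and VCS for heat by genotype.

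**Figure D4:**
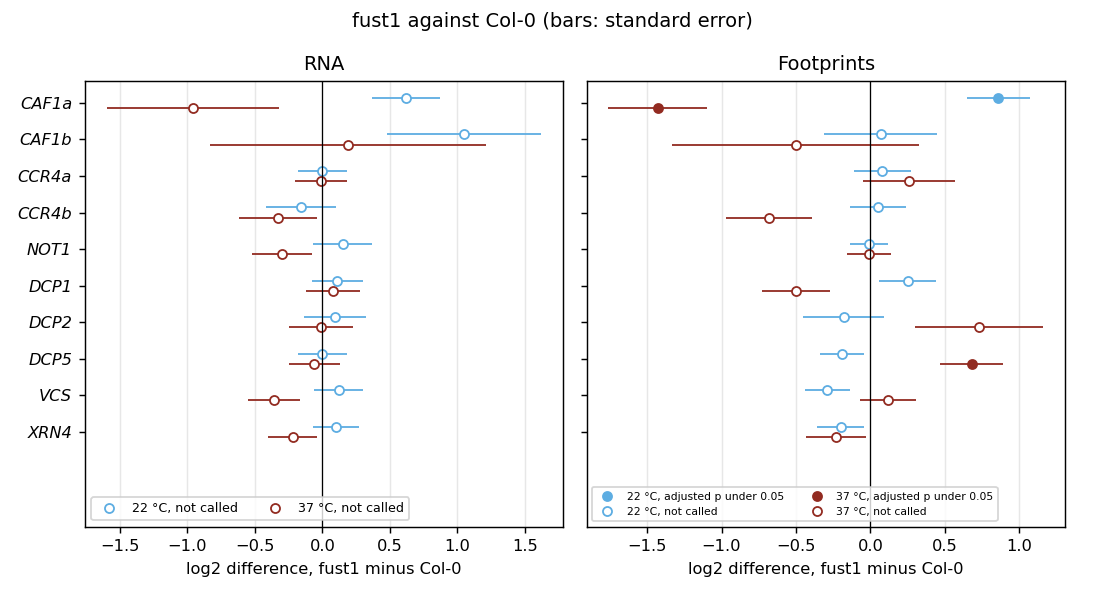
Log2 difference of fust1 from Col-0 on the TMM scale with its standard error, at 22 and 37 °C, for RNA (left) and footprints (right). Filled points have an adjusted p under 0.05: CAF1a footprints at 22 °C (0.86) and 37 °C (-1.43), and DCP5 footprints at 37 °C (0.68).

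The other decay genes, 68 in 4 lists, were called in both directions. For RNA in heat, 15 of 64 tested were higher and 13 lower in Col-0 (all genes 19.2 % and 18.2 %), and 16 higher and 11 lower in fust1 (18.8 % and 17.9 %). For footprints 20 of 63 were higher and 26 lower in Col-0 (all genes 27.9 % and 31.8 %), and 15 and 28 in fust1 (27.6 % and 31.2 %). The medians of -0.32 and -0.32 stood beside -0.21 and -0.13 over all genes. The same shares stand behind the counts by list below. On library totals 0 of 63 footprint values were called higher in Col-0 and 1 in fust1 (all genes 3.76 % and 3.69 %). Lower calls numbered 54 in each (all genes 79.1 % and 82.0 %), so the rises below are relative to the bulk of genes. Between genotypes, footprints of 2 of 63 were higher and 0 lower in fust1 at 22 °C (all genes 2.31 % and 2.07 %). At 37 °C 5 were higher and 5 lower (all genes 6.10 % and 4.61 %). RNA of 0 of 64 was called between genotypes at either temperature (all genes 0.0569 % at 22 °C and 0.0517 % at 37 °C).

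Among other deadenylase and CCR4-NOT genes, footprints of 6 of 20 were higher and 8 lower in Col-0, and 5 higher and 7 lower in fust1, while RNA of 8 and 5 of 21 was higher and of 2 lower in each. Footprints of AT1G80780 went from 4.55 and 3.92 CPM to 19.3 and 15.8 CPM in Col-0 and from 5.02 and 3 CPM to 21.2 and 25.9 CPM in fust1. That rise was 2.04 ± 0.28 and 2.57 ± 0.24 (adjusted p = 3.53e-07 and 6.41e-10), remained above 0 on library totals (0.24 and 0.90), and was called there in fust1. AT3G18500 rose by 1.95 ± 0.19 and 1.70 ± 0.18 in footprints (adjusted p = 8.04e-10 and 5.12e-09; 0.15 and 0.02 on library totals, not called). In contrast, AT2G28540 fell by 3.32 ± 0.38 and 2.72 ± 0.31 (adjusted p = 1.58e-08 and 1.68e-08) with RNA at 0.22 ± 0.20 and 0.02 ± 0.20. AT5G60170 fell by 2.80 ± 0.34 in Col-0 and by 1.29 ± 0.23 in fust1, and AT3G45630 by 2.87 ± 0.38 and 1.23 ± 0.26. Their heat by genotype terms for footprints were 1.51 ± 0.45 (adjusted p = 0.0317) and 1.64 ± 0.51 (adjusted p = 0.0409). For the NOT2a gene AT1G07705 the heat by genotype term went the other way (-1.28 ± 0.28, adjusted p = 0.00451). Its footprints at 37 °C were 28.1 and 31.3 CPM in Col-0 and 13.4 and 14.6 CPM in fust1.

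Among other decapping cofactors, 7 of 18 had higher footprints and 4 lower in Col-0, and 6 and 7 in fust1; for RNA the counts were 3 and 4, and 6 and 5. Footprints of AT1G79090 went from 31 and 32.6 CPM to 3.59 and 1.22 CPM in Col-0 and from 29.8 and 28.8 CPM to 6.54 and 4.1 CPM in fust1. The fall was 3.74 ± 0.33 (adjusted p = 1.09e-10) and 2.49 ± 0.24 (adjusted p = 9.31e-10), beyond RNA falls of 1.14 ± 0.19 and 1.39 ± 0.20. Footprint counts of AT4G14990 went from 213 and 169 to 1 and 1 in Col-0, and its footprints fell by 2.34 ± 0.38 in fust1 (adjusted p = 5.89e-06). EMB2816 (LSM7), a subunit of the LSM ring that binds deadenylated ends, rose by 1.57 ± 0.16 and 1.19 ± 0.15 relative to the bulk, but was at -0.23 and -0.49 on library totals. AT2G45810 rose in Col-0 by 1.11 ± 0.16 (-0.69 on library totals) and was at 0.18 ± 0.16 in fust1. Its heat by genotype term was -0.93 ± 0.22 (adjusted p = 0.00844). VCR, the neighbour and relative of VCS, was not called in Col-0 (-0.37 ± 0.22) and fell in fust1 (-0.88 ± 0.21, adjusted p = 0.000731).

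Among other exonucleases, exosome and SKI genes, 5 of 16 had higher footprints and 9 lower in Col-0, and 2 and 9 in fust1; RNA of 2 was higher and of 5 lower in Col-0, and of 3 and 2 in fust1. The nuclear exonuclease genes XRN2 and XRN3, relatives of XRN4, lost footprints: XRN2 fell by 2.69 ± 0.34 and 1.51 ± 0.25, and XRN3 by 1.90 ± 0.25 and 0.83 ± 0.20. The heat by genotype term of XRN3 footprints was 1.07 ± 0.33 (adjusted p = 0.0411). AT1G77680 (SOV, an RRP44-type exonuclease) gained RNA, by 1.38 ± 0.26 and 1.33 ± 0.26 (0.36 and 0.44 on library totals, not called), and lost TE, by 3.62 ± 0.49 and 2.79 ± 0.44 (adjusted p = 2.12e-05 and 0.000186). For CER7, an exosome subunit, the heat by genotype term of footprints was -1.24 ± 0.34 (adjusted p = 0.0195).

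Of 9 genes of nonsense-mediated decay, ribosome rescue and the LARP1 family, footprints of 2 were higher and 5 lower in each genotype, and RNA of 2 higher and 2 lower. LARP1a, which is known to work with XRN4 in heat-induced mRNA decay in Arabidopsis, kept its RNA near the bulk (-0.34 ± 0.18 and 0.07 ± 0.18, not called). Its footprints went from 48.8 and 56.7 CPM to 7.83 and 6.08 CPM in Col-0 and from 69.9 and 59.2 CPM to 12.7 and 15.2 CPM in fust1, a fall of 2.93 ± 0.23 (adjusted p = 1e-11) and 2.20 ± 0.18 (adjusted p = 3.53e-11). LARP1b gained RNA on both scales (2.39 ± 0.19 and 2.38 ± 0.19, and 1.35 and 1.45 on library totals), and its TE fell by 3.56 ± 0.50 and 2.42 ± 0.41. LBA1 (UPF1), the helicase of nonsense-mediated decay, had higher footprints in Col-0 (1.02 ± 0.14, adjusted p = 6.48e-07; -0.78 on library totals) and in fust1 (0.51 ± 0.14, adjusted p = 0.00285), and lower ones in fust1 than in Col-0 at 37 °C (-0.64 ± 0.15, adjusted p = 0.00491).

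**Figure D5:**
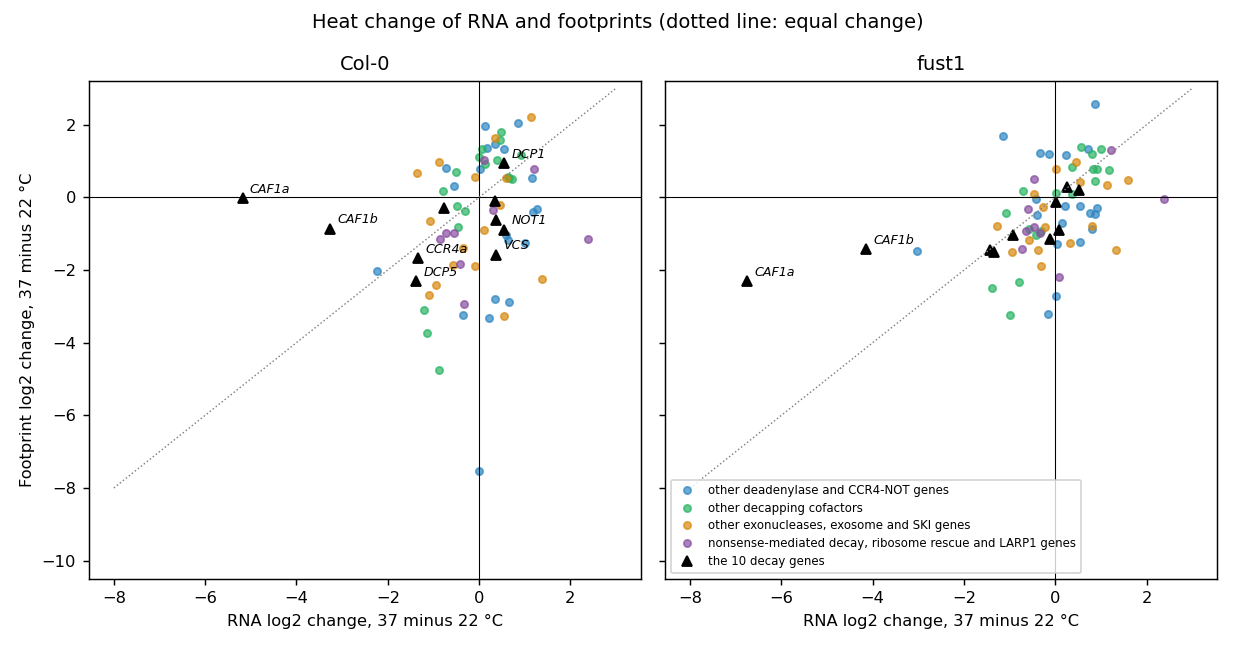
Footprint log2 change against RNA log2 change from 22 to 37 °C on the TMM scale in Col-0 (left) and fust1 (right), one point per gene; triangles are the 10 decay genes, circles the other decay genes by list, and the dotted line marks equal change. CAF1a and CAF1b lie to the left of every other gene plotted in both genotypes. The lowest Col-0 point is AHG2 with 0 footprint counts at 37 °C and so no measured fold. On library totals 0 of the 63 other genes in Col-0 (all genes 3.76 %) and 1 in fust1 (all genes 3.69 %) are called higher in footprints.

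By likeness over the 16 libraries (root mean square difference of log2 CPM, each gene set to its own Col-0 22 °C mean in each assay), the 5 genes nearest to CAF1a among 17815 were AT2G19650 (0.76), AT2G44940 (0.87), RTFL8 (0.94), CYCA3;4 (0.96) and AT4G16750 (0.98). RNA counts of AT2G19650 went from 71 and 119 to 1 and 1 in Col-0 and from 140 and 102 to 1 and 0 in fust1. Its footprints changed by -0.42 ± 0.55 in Col-0 (adjusted p = 0.536) and -1.16 ± 0.52 in fust1 (adjusted p = 0.0628). CAF1b was the 93rd nearest gene to CAF1a (1.45, with a median of 2.8 over all genes). From CAF1b, CAF1a ranked only 5956 (median 1.65 over all genes), behind CCR4a (740), DCP5 (1160) and CCR4b (1940). The nearest to CAF1b were FUT4 (0.46), AT1G08160 (0.47), RHA3A (0.54), FLS2 (0.55) and AT1G80450 (0.55), and FLS2, the flagellin receptor, had RNA changes of -2.99 ± 0.38 and -2.73 ± 0.36. CAF1b counts were low, and those of its nearest genes varied. In Col-0 RNA at 22 °C these ran from 34 and 74 (FUT4) to 285 and 491 (RHA3A), beside 38 and 47 for CAF1b. At 37 °C they were 3 and 6 for FUT4, 2 and 5 for AT1G08160, and 3 and 2 for AT1G80450. FLS2 had 15 and 17 there, RHA3A 34 and 56, and CAF1b 1 and 3. Near CAF1a, AT2G19650 and RTFL8 had 0 or 1 RNA counts in each 37 °C library. How far low counts shape these likenesses was not tested.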

How the data were processed

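Per the labels, the RNA-seq libraries were made from RNA captured on oligo-dT, and the footprints by RNase I digestion, sizing columns and removal of ribosomal RNA. The authors deposited raw counts, whole numbers for 27628 genes in 8 libraries of each assay, with nothing scaled. Tools named by the submitters' processing notes are Bowtie 1.0.1, fastp 0.19.7, featureCounts 1.6.2 and STAR 2.7.3a, with TAIR10 as the build. Which tool served which assay, the strand setting and the counted feature are not given in the sources used here. A gene table of another release supplied the symbols, 7 of the 10 members among them.

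Counts that passed filterByExpr (minimum count 10, by group; 19340 genes for RNA, 18445 for footprints, 17816 in both) went into edgeR 4.0.16 under R 4.3.3 with TMM factors (quasi-likelihood, robust, all groups of an assay in 1 fit, 4 residual degrees of freedom; 8 for TE). TE was fitted over all 16 libraries as the term by which a footprint change exceeds the RNA change. RNA, footprints and TE were each compared in 5 ways, 15 in all. Both genotypes were tested for heat, fust1 was compared with Col-0 at either temperature, and the last term subtracts the heat change of Col-0 from that of fust1. The standard error was taken as |log2 change| divided by √F. Pattern likeness used log2 CPM with prior count 2. An exact permutation test of 2 against 2 cannot go below p = 0.333. Alternatives were RLE scaling, library totals, DESeq2 1.42.0, no filter beyond 1 count, a replicate block, and each library left out. The procedure was tested on simulated data.

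The members and gene lists were chosen with earlier results of these data known. Named list genes were up to 4 per list and comparison with the smallest adjusted p, with their values in the other comparisons; VCR, and the comparisons of named genes outside that rule, were chosen after their values were seen. Levels are not compared between genes, as no transcript lengths were used. Promoter and protein sequences were not analysed here.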

Additional observations from a re-analysis of the deposited data

Results flagged for a closer look

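For footprints, the response to heat differed between the genotypes for 2 of the 10 genes, by the test of that difference, where 8.70 % of all 18445 genes were called (5.49 % higher and 3.21 % lower). CAF1a footprints changed by -0.02 ± 0.27 in Col-0 and by -2.31 ± 0.27 in fust1, a difference of -2.30 ± 0.39 (adjusted p = 0.000463). DCP5 footprints changed by -2.31 ± 0.19 in Col-0 and by -1.44 ± 0.17 in fust1, a difference of 0.87 ± 0.26 (adjusted p = 0.0343). The DCP5 call was lost without any one of 4 of the 8 footprint libraries (adjusted p up to 0.148).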

How the results depend on the processing

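Of 36 member calls, 25 kept direction and call under every alternative tried, and 11 did not. With 2 libraries per group, and 25 to 43 CAF1a and 3 to 6 CAF1b footprint counts per library at 37 °C, counts limit what can be seen.

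On library totals the called members numbered 8 (RNA, fust1), 10 (footprints, Col-0), 7 (TE, Col-0) and 7 (TE, fust1). RNA turned to -0.49 (NOT1), -0.49 (DCP1), -0.67 (DCP2), -0.67 (VCS) and -0.69 (XRN4) in Col-0, and to -0.81 (NOT1), -0.42 (DCP1), -0.67 (DCP2) and -0.90 (XRN4) in fust1. Footprints turned to -0.86 (DCP1, Col-0), -1.48 (DCP1, fust1) and -1.38 (DCP2, fust1). TE turned to -0.31 (CCR4b, Col-0) and -0.37 (DCP1, Col-0). The shift of all genes on that scale is given in the report. TE of DCP2 in fust1, at 0.01, was -0.07 with RLE, -0.71 on library totals, -0.05 with DESeq2 and -0.02 without the filter. RLE and DESeq2 each called 1 member for footprints by genotype at 37 °C, with 1974 and 1973 of all 18445 genes called. The cause was not tested.

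Leaving out 1 library at a time gave 0 to 1 called members for footprints by genotype at 22 °C, 0 to 2 at 37 °C, 1 to 2 for heat by genotype, and 2 to 4 for TE in fust1. The shares of all genes called in these fits were not counted. Ranges that crossed 0 were, for RNA in fust1, -0.21 to 0.35 (NOT1), -0.26 to 0.05 (VCS) and -0.07 to 0.11 (XRN4). For footprints they were -0.34 to 0.28 (CAF1a, Col-0) and -0.34 to 0.61 (DCP2, fust1). For TE in fust1 they were -0.52 to 0.01 (CCR4a), -0.42 to 0.31 (CCR4b), -0.60 to 0.35 (DCP2) and -0.11 to 0.11 (DCP5), and for CAF1a TE by genotype -0.03 to 0.55 (22 °C) and -1.09 to 0.13 (37 °C).

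Correlations of same-numbered deviations ran from -0.29 to 0.23 for RNA, from -0.07 to 0.06 for footprints, and from -0.02 to 0.2 between the assays. For RNA they were 0.17 between genotypes at 22 °C and 0.23 at 37 °C, and -0.29 to 0.04 between temperatures. Replicate numbers thus did not pair all samples, and whether they pair RNA libraries within a temperature was not tested. The replicate block assumed the same replicate effect at both temperatures. With the replicate block, 5 members were called for RNA in Col-0 (6 without) and 3 for TE in fust1 (4 without), as DCP1 RNA (0.54, adjusted p = 0.058) and CAF1b TE (2.73, adjusted p = 0.0536) were lost. The block called 6663 of all 19340 genes and 4571 of all 17816 in these comparisons. Over all genes DESeq2 called 87, 318 and 186 for RNA by genotype at 22 °C, 37 °C and heat by genotype, against 11, 10 and 6; no filter gave 57, 195 and 122, the block 4, 1 and 0, and library totals 20, 1 and 1. For TE by genotype at 22 °C, 37 °C and heat by genotype DESeq2 called 18, 503 and 702 and the block 1, 87 and 63, against 1, 235 and 195.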
